A study of Mus musculus with 12 samples.

Results

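The expression of 32 genes of cholesterol synthesis, uptake and efflux was followed through the conversion of MTΔECad mouse breast cancer cells into fat cells. The 32 genes were listed by name, and a gene was kept if it had 10 or more counts in 2 or more libraries. All 32 of 32 met this, out of 17090 genes in the count table. MTΔECad is a mesenchymal line whose name marks the loss of E-cadherin, and every time point comes from this 1 line. RNA was sequenced at 6 time points with 2 libraries each, 12 in all, from 2 independent experiments. The 0 h group is the untreated start, after seeding at 20000 cells per cm2 and a night in culture. The 6 h and day 3 groups had been given the growth factor BMP2 (200 ng/ml) only. The day 5 group was in the following phase of 4 days, when BMP2 was combined with rosiglitazone at 2 µM, and the day 7 group stood at its end. The day 10 group had then had rosiglitazone without BMP2 for 3 more days. Rosiglitazone binds and activates PPARγ, the master regulator of fat cell formation. Untreated cells of the same age were not analysed here, so time in culture, cell density and treatment cannot be told apart.

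Cells make cholesterol from acetyl-CoA, first through the mevalonate pathway to farnesyl diphosphate, then through squalene and lanosterol in the endoplasmic reticulum. When sterols run low there, the escort protein SCAP carries the transcription factor SREBP2 to the Golgi for cleavage, and the released part switches on genes of synthesis and uptake; INSIG proteins hold the complex back when sterols are plentiful. Oxysterols activate the LXR receptors, which switch on the exporters ABCA1 and ABCG1. Fat cells hold much of the body's free cholesterol, most of it in the membrane around the lipid droplet and in the plasma membrane.

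Library totals lay between 12820802 and 17570366 counts. Levels are in CPM, the counts scaled to a common library size with TMM factors, each library given in the order replicate 1 and replicate 2, or as mean ± SD (n = 2). A gene was called in a comparison at an edgeR adjusted p below 0.05, and changes given with a standard error (SE) are log2 fold changes. The p-values rest on the spread between the 2 libraries of a time point, pooled over all 6 time points. The summed level of 6 adipocyte markers (Fabp4, Adipoq, Plin1, Lpl, Cidec and Cd36) was 28.6 ± 3.79 CPM at 0 h and 316 ± 26.1 CPM at day 3; it reached 4822 ± 458 CPM by day 5 and 34369.8 ± 987 CPM by day 10. The day 3 value was nearly all Lpl, at 313 ± 25.2 CPM, the only one of the 6 called at day 3. From day 3 to day 5 all 6 rose, as did 34.0% of all genes. Adipoq, Plin1, Cidec and Cd36 passed the filter on low counts only through libraries from day 5 on, so their rise was partly built in. The sum of 5 genes of dividing cells (Mki67, Top2a, Ccnb1, Cdk1 and Birc5) went from 2986 ± 49.9 CPM at 0 h to 55.3 ± 16.5 at day 3 and 41.6 ± 6.78 at day 10. Of 7 macrophage markers, Adgre1 and Itgam were not analysed here, Ptprc and Lyz2 had 2 and 13 counts over all 12 libraries, and the 5 measured ones summed to between 8.35 and 15.2 CPM per library. The 4 endothelial markers summed to at most 3.98 CPM. The 5 epithelial markers summed to 843 ± 8.23 CPM at 0 h, dipped to 126 ± 33.5 CPM at day 3 and stood at 934 ± 41.3 CPM at day 10. Their makeup changed: from 0 h to day 10 Krt8 fell from 553 ± 8.76 CPM to 222 ± 16.2 CPM and Krt18 from 172 ± 1.01 CPM to 43.5 ± 2.65 CPM, Krt14 rose from 117 ± 17.9 CPM to 664 ± 23.2 CPM, and Epcam went from 0 counts to 5.74 ± 0.649 CPM. The part of these shifts in the results on cholesterol genes was not tested.

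Of the 19 genes of cholesterol synthesis enzymes, 15 fell during the 3 days of BMP2, and 15 were above their start at day 10, after rosiglitazone. Of all genes tested, 35.0% fell by day 3 and 42.8% were higher at day 10 than at 0 h. The summed level of the 19 synthesis enzyme genes was 1289 ± 158 CPM at 0 h, 1322 ± 204 CPM at 6 h and 595 ± 50.9 CPM at day 3. It then reached 1642 ± 153 CPM by day 5, 3409 ± 259 CPM by day 7 and 3570.0 ± 40.0 CPM by day 10. The libraries of day 3 lay below all others in this sum and those of day 7 and day 10 above all others. Of the 4 efflux and LXR genes, Abca1, Nr1h2 and Nr1h3 rose at day 3, when most synthesis genes fell, and only Abcg1 fell with them. Of all genes, 33.1% rose at day 3. In the later steps they moved more alike: 3 of the 4 rose at day 5 and 3 at day 7, against 34.0% and 19.0% of all genes. Of the 19 enzymes, 14 rose at day 5 and 15 at day 7. Of the 19 enzymes, 16 had their lowest mean at day 3, against 18.3% of all genes tested, and 11 had their highest at day 10, against 26.4%. All 32 genes differed between time points in the joint edgeR test, as did 94.7% of all 12740 genes tested. In bulk RNA, fewer cells of a type and less RNA per cell cannot be told apart.

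At 6 h, 0 of the 32 genes were called by edgeR, where 0.746% of all genes were (0.534% higher and 0.212% lower). At an unadjusted p below 0.05, 2 were higher and 1 lower, and DESeq2 called 0. Npc2, the only one of the 32 to gain a call for a rise there, was called with no filter on low counts, with only the 4 libraries compared or without either day 3 library (edgeR adjusted p from 0.00539 to 0.0333). By day 3, 19 of 32 had fallen, against 35.0% of all genes, and 7 had risen, against 33.1%. The median log2 fold change of the 32 was -0.73, and 0 over all genes. Among the 19 enzymes 15 fell, 11 of them at least 2-fold (all genes 13.3%), and 0 rose; the count of risen enzymes was also 0 at an unadjusted edgeR p below 0.05 and by DESeq2. With no filter on low counts Fdft1, Sqle, Lss and Insig1 were called lower as well (edgeR adjusted p of at most 0.0276). From day 3 to day 5, 21 of 32 rose and 5 fell, against 34.0% and 31.0% of all genes (median 0.96, all genes 0.0125). At least 2-fold, 16 rose against 15.7%, and none of the 5 that fell did so by that much, against 10.1%. From day 5 to day 7, 20 rose against 19.0% of all genes (median 0.89, all genes -0.0103), and 14 of them rose at least 2-fold against 4.93%. That last count was 8 without day 5 replicate 2. The 2 genes that fell between day 5 and day 7, Mylip and Stard4, stood against 18.8% of all genes; 1 was left without either day 5 library and 0 without day 7 replicate 1.

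**Figure D1:**
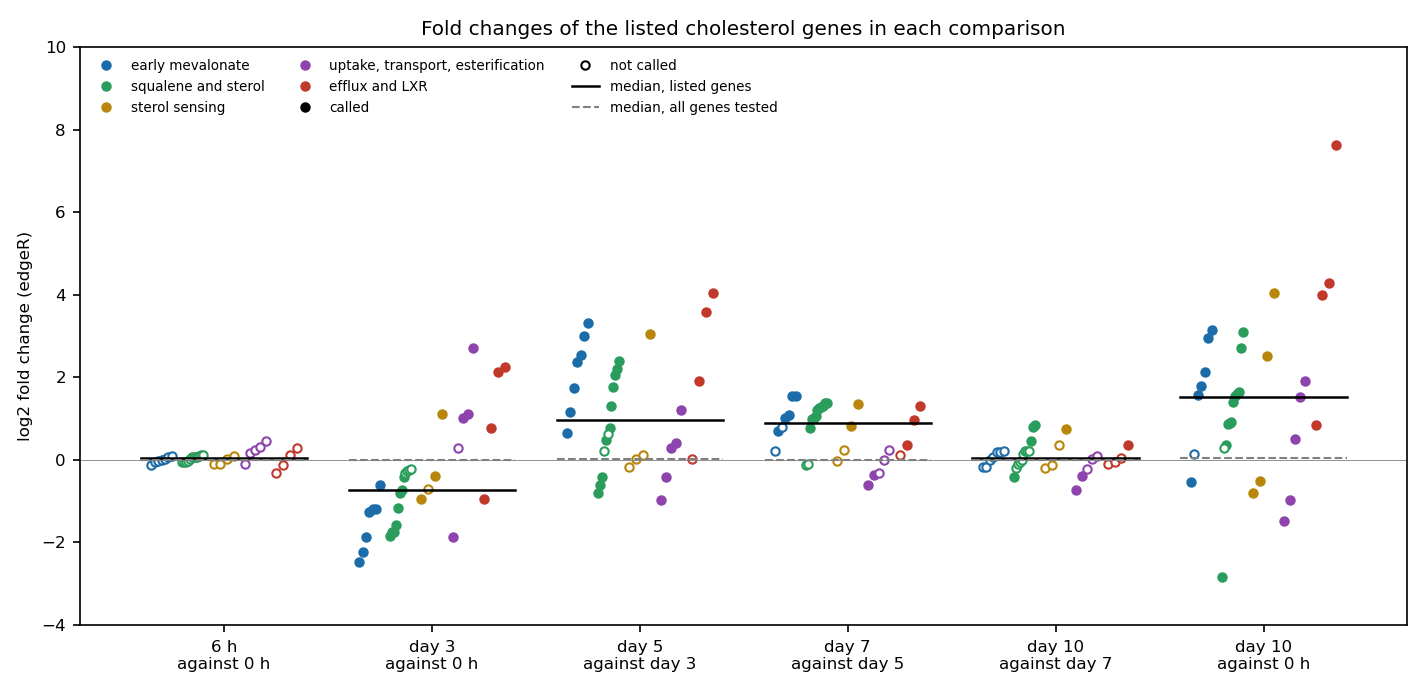
Log2 fold changes of the 32 genes (1 point each, coloured by role; filled when called by edgeR) in the 6 comparisons on the horizontal axis, with the median of the 32 as a solid line and of all genes tested as a dashed line. Points of the 19 synthesis enzymes lie below 0 at day 3 against 0 h, where the median of the 32 is -0.73, and mostly above 0 in the next pair of steps, with medians of 0.96 and 0.89.

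In the last step, from BMP2 with rosiglitazone to rosiglitazone alone, the 32 genes changed about as often as all genes. From day 7 to day 10, 5 of 32 rose (Fdft1, Sqle, Sc5d, Insig2 and Nr1h3) and 3 fell (Ebp, Mylip and Npc1), against 15.1% and 13.2% of all genes. The count of risen genes was 3 without day 7 replicate 2 or without day 10 replicate 1, and 10 when only the 4 libraries compared were fitted. Over the whole course, day 10 against 0 h, 24 of 32 rose and 6 fell, against 42.8% and 39.9% of all genes (median 1.53, all genes 0.06). At least 2-fold, 18 rose and 2 fell, against 27.3% and 23.5%. The 6 that fell were Mvk, Lbr, Srebf2, Scap, Stard4 and Soat1, and Idi1 and Cyp51 were not called. Comparisons with 0 h share its libraries, and neighbouring steps share a time point.

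The first enzymes, from acetyl-CoA to farnesyl diphosphate, moved together at day 3 and day 5: all 7 of 7 fell and then all 7 rose. Of all genes, 35.0% fell at day 3 and 34.0% rose at day 5. Hmgcs1 (chr13:119690351-119708260, GRCm38, Entrez gene 208715), the synthase that makes HMG-CoA, measured 115 and 167 CPM at 0 h, 122 and 173 at 6 h, 65.9 and 58.5 at day 3, 657 and 583 at day 5, 1301 and 1188 at day 7 and 1216 and 1263 at day 10. Its day 3 libraries were the lowest and those of day 7 and day 10 the highest, with no overlap between them and 0 h. The log2 fold change was -1.18 (SE 0.20, edgeR adjusted p = 7.57e-04) at day 3 against 0 h and 3.32 (SE 0.21, edgeR adjusted p = 1.00e-06) from day 3 to day 5. At day 7 the mean was 20.0 times that of day 3. Fdps, which encodes farnesyl diphosphate synthase, measured 23.6 and 33.3 CPM at 0 h, 24.1 and 33.8 at 6 h, 6.73 and 5.46 at day 3, 55.3 and 42.9 at day 5, 147 and 139 at day 7 and 126 and 125 at day 10. It changed by -2.22 (SE 0.24, edgeR adjusted p = 1.83e-05) by day 3 and 3.00 (SE 0.23, edgeR adjusted p = 1.45e-06) by day 5, and its level at day 7 and day 10 lay above that of every earlier library.

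Acat2, the cytosolic thiolase of the first step, had 32.2 and 40.8 CPM at 0 h, 33.5 and 39.8 at 6 h, 10.7 and 9.41 at day 3, 62.2 and 54.8 at day 5, 97.3 and 93.8 at day 7 and 107 and 111 at day 10. It fell by 1.87 (SE 0.13, edgeR adjusted p = 2.38e-09) at day 3 and rose by 2.54 (SE 0.13, edgeR adjusted p = 3.30e-11) at day 5. Pmvk, the phosphomevalonate kinase gene, went from 25.2 ± 4.49 CPM at 0 h to 11.2 ± 0.0877 CPM at day 3 and 195 ± 0.371 CPM at day 10, a log2 fold change of 2.94 (SE 0.18, edgeR adjusted p = 6.55e-08) over the whole course. Mvd, the decarboxylase that yields isopentenyl diphosphate, had 14.99 ± 4.16 CPM at 0 h, 9.81 ± 1.40 CPM at day 3 and 52.2 ± 2.28 CPM at day 10. Its fall at day 3, -0.62 (SE 0.20, edgeR adjusted p = 0.0165), was not called without 0 h replicate 2 (edgeR adjusted p = 0.241) or day 3 replicate 2 (0.116).

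Mevalonate kinase stood apart from its neighbours in the pathway. Mvk measured 32.02 and 28.4 CPM at 0 h, 26.3 and 29.5 at 6 h, 12.9 and 12.3 at day 3, 22.0 and 17.8 at day 5, 24.4 and 22.1 at day 7 and 21.3 and 20.1 at day 10. It fell by day 3 like the others, -1.26 (SE 0.13, edgeR adjusted p = 1.42e-07), but stayed below its 0 h level afterwards, so that day 10 against 0 h gave -0.54 (SE 0.12, edgeR adjusted p = 5.84e-04). In both day 10 libraries Mvk was lower than in either 0 h library, while Pmvk, the next kinase, was higher in both. Idi1, the isopentenyl diphosphate isomerase gene, had between 5 and 53 counts per library, or 1.32 and 2.97 CPM at 0 h, 1.76 and 2.88 at 6 h, 0.445 and 0.329 at day 3, 1.24 and 1.37 at day 5, 2.84 and 1.79 at day 7 and 1.88 and 2.91 at day 10. It fell by 2.47 (SE 0.53, edgeR adjusted p = 5.68e-04) at day 3, a value of -1.75 without 0 h replicate 2, and rose by 1.73 (SE 0.57, edgeR adjusted p = 0.0144) at day 5. The day 5 call was lost without day 3 replicate 2 (edgeR adjusted p = 0.0792) or day 5 replicate 2 (0.0596). Its 0 h and 6 h libraries overlapped those of day 7 and day 10.

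Some of these counts can hold reads of other genes. A transcript of Idi1 was 100% identical over 684 bases to Gm13502, and 5 other annotated genes besides an overlapping one matched Fdps over 605 to 1066 bases at 91.1% to 98.9% identity. Acat2 matched Acat3 over 1477 bases at 97.7% identity. It also matched Tcp1 over 445 bases at 98.7% identity. Acat3 itself had at most 1.83 ± 0.483 CPM, at day 5, but Tcp1, a chaperonin subunit gene, had 906 ± 32.9 CPM at 0 h, 409.7 ± 16.1 CPM at day 3 and 277 ± 2.20 CPM at day 10. How the counting treated such reads is not given in the sources used here, so the levels of Idi1, Fdps and Acat2 are uncertain. Hmgcs1 shares 557 exonic bases with the antisense gene Gm48342.

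**Figure D2:**
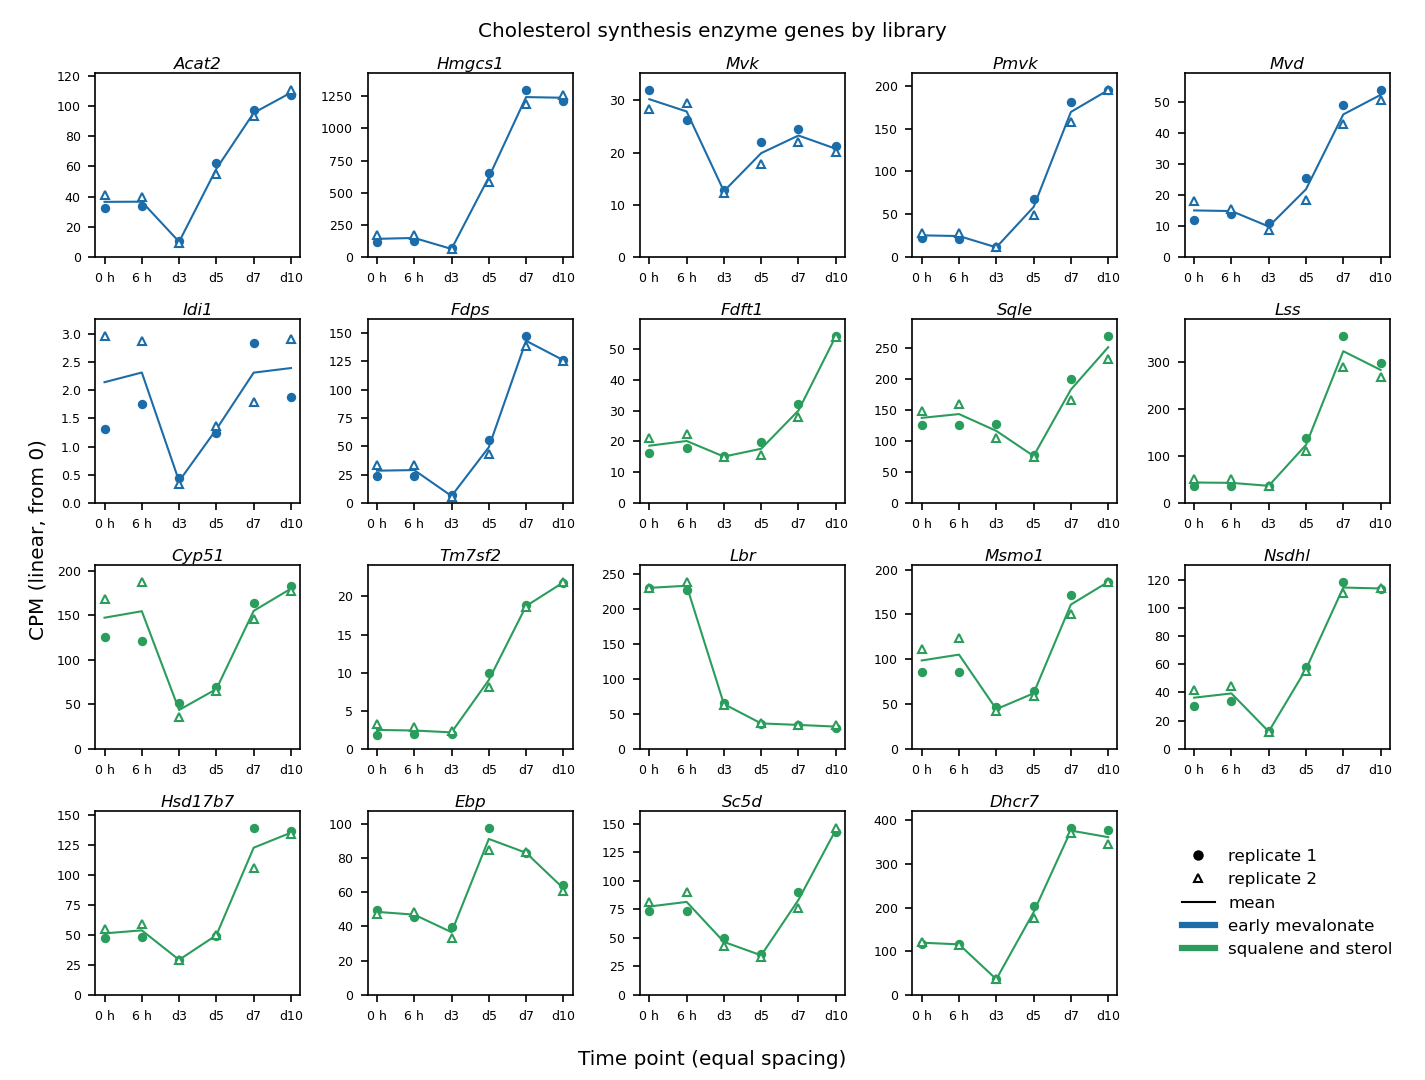
CPM of the 19 synthesis enzyme genes in each library (circle, replicate 1; open triangle, replicate 2; line, mean) at the 6 time points, which are drawn at equal spacing. Most panels show a low at day 3 and the highest values at day 7 or day 10; Lbr falls and stays low, and Mvk does not regain its 0 h level.

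Genes of the steps from farnesyl diphosphate to cholesterol fell at day 3 in 8 of 12 cases, rose at day 5 in 7 (with 3 fallen) and rose at day 7 in 10. Of all genes, 35.0% fell at day 3, 34.0% rose and 31.0% fell at day 5, and 19.0% rose at day 7. Of all 19 enzymes, 10 had a day 5 mean above that of 0 h, among them Lss, Dhcr7, Nsdhl, Tm7sf2 and Ebp, and 9 did not, among them Sqle, Cyp51, Msmo1, Sc5d and Fdft1. This split was read from the means and not tested, and the day 5 libraries of Idi1, Fdft1 and Hsd17b7 overlapped those of 0 h.

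Lss, lanosterol synthase, is of the first kind and measured 35.2 and 51.6 CPM at 0 h, 35.3 and 50.03 at 6 h, 36.9 and 35.9 at day 3, 138 and 109 at day 5, 356 and 290.3 at day 7 and 299 and 268 at day 10. It was not called at day 3 (-0.26, SE 0.24, edgeR adjusted p = 0.363) and rose by 1.76 (SE 0.23, edgeR adjusted p = 2.33e-04) at day 5 and 1.39 (SE 0.21, edgeR adjusted p = 0.00155) at day 7. Dhcr7, the reductase of the last step in one branch of the pathway, had 118 and 121 CPM at 0 h, 116 and 115 at 6 h, 36.1 and 35.6 at day 3, 203 and 176 at day 5, 382 and 369.9 at day 7 and 377 and 345 at day 10. Its fall at day 3 was -1.74 (SE 0.082, edgeR adjusted p = 1.07e-11) and its rise at day 5 2.40 (SE 0.082, edgeR adjusted p = 1.94e-13). Nsdhl, a dehydrogenase that helps remove the methyl groups at carbon 4 of the sterol, went from 36.3 ± 7.84 CPM at 0 h to 12.3 ± 0.837 CPM at day 3 and 114 ± 5.67 CPM at day 7. Ebp, a sterol isomerase, was the only enzyme with its highest mean at day 5, at 91.1 ± 9.13 CPM. It then fell to 62.2 ± 2.57 CPM at day 10, with -0.42 (SE 0.093, edgeR adjusted p = 0.00300) for the last step.

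Of these 9, Sqle and Sc5d had their lowest libraries at day 5. Sqle, squalene epoxidase, measured 126 and 149 CPM at 0 h, 126 and 160.3 at 6 h, 127 and 106 at day 3, 78.1 and 73.3 at day 5, 199 and 166 at day 7 and 269 and 233 at day 10. Against day 3 it fell by 0.62 (SE 0.15, edgeR adjusted p = 0.00316) at day 5, before it rose by 1.27 (SE 0.15, edgeR adjusted p = 5.46e-05) at day 7. The further rise to day 10, 0.46 (SE 0.14, edgeR adjusted p = 0.0324), was not called without any 1 of day 5 replicate 1, day 5 replicate 2, day 7 replicate 2 or day 10 replicate 1 (edgeR adjusted p from 0.0548 to 0.207) or with a replicate block (0.0559). Sc5d, a sterol desaturase, had 73.7 and 81.1 CPM at 0 h, 73.1 and 89.8 at 6 h, 49.7 and 43.2 at day 3, 36.2 and 33.1 at day 5, 90.1 and 76.4 at day 7 and 143 and 146 at day 10. It rose in both later steps, by 1.26 (SE 0.11, edgeR adjusted p = 5.07e-07) and 0.80 (SE 0.11, edgeR adjusted p = 4.25e-05). Its fall from day 3 to day 5, -0.42 (SE 0.11, edgeR adjusted p = 0.00431), was not called without day 3 replicate 1 (edgeR adjusted p = 0.0516).

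Cyp51, the lanosterol demethylase, had 126 and 169 CPM at 0 h, 122 and 187 at 6 h, 51.3 and 36.1 at day 3, 69.6 and 64.7 at day 5, 164 and 146 at day 7 and 183 and 177 at day 10. It fell by 1.75 (SE 0.26, edgeR adjusted p = 5.71e-04) at day 3 and rose by 1.2 (SE 0.25, edgeR adjusted p = 0.00787) at day 7, a call lost without day 5 replicate 2 (edgeR adjusted p = 0.0580). Day 10 against 0 h was not called (0.29, SE 0.24, edgeR adjusted p = 0.304), except with no filter on low counts (edgeR adjusted p = 0.00379). Msmo1, a methylsterol oxidase, went from 98.7 ± 18.3 CPM at 0 h to 44.4 ± 3.47 CPM at day 3 and 186 ± 0.0431 CPM at day 10. Its rise from day 3 to day 5, 0.48 (SE 0.18, edgeR adjusted p = 0.0422), was lost with upper-quartile factors, with the replicate block and without any 1 of the 8 libraries of day 3, day 5, day 7 or day 10 (edgeR adjusted p from 0.0501 to 0.207). Hsd17b7, a sterol ketoreductase, had 51.5 ± 5.05 CPM at 0 h, 29.3 ± 0.0933 CPM at day 3, 49.9 ± 0.409 CPM at day 5 and 136 ± 1.52 CPM at day 10.

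Fdft1, squalene synthase, had 16.2 and 21.0 CPM at 0 h, 18.0 and 22.3 at 6 h, 15.1 and 15 at day 3, 19.7 and 15.5 at day 5, 32.1 and 28.0 at day 7 and 54.3 and 54.0 at day 10. Its day 3 change was not called (-0.31, SE 0.15, edgeR adjusted p = 0.0784), and it rose by 0.77 (SE 0.14, edgeR adjusted p = 4.57e-04) at day 7 and 0.85 (SE 0.13, edgeR adjusted p = 1.79e-04) at day 10. Fdft1 shares 774 exonic bases, 18.3% of its own, with Ctsb on the opposite strand, and matched Gm6781 over 1249 bases at 97.4% identity. Ctsb, the cathepsin B gene, stood at 184 ± 7.72 CPM at 0 h, 529 ± 54.8 CPM at day 3, 688 ± 21.0 CPM at day 7 and 924 ± 25.4 CPM at day 10. Whether counting used strand is not given in the sources used here, and the part of Ctsb reads in the Fdft1 counts was not tested.

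A pair of genes for the same sterol reductase step changed places in level. Lbr (chr1:181815315-181842401), whose protein is also a lamin B receptor of the inner nuclear membrane, measured 230.2 and 231 CPM at 0 h, 228 and 239 at 6 h, 65.3 and 63.1 at day 3, 36.0 and 36.9 at day 5, 34.9 and 33.8 at day 7 and 29.9 and 33.9 at day 10. It fell by 1.84 (SE 0.071, edgeR adjusted p = 6.85e-13) at day 3 and fell by 0.81 (SE 0.075, edgeR adjusted p = 5.77e-08) again at day 5, and its 0 h and 6 h libraries lay above all later ones. Tm7sf2 (chr19:6062821-6067850), which encodes the reductase of the endoplasmic reticulum, had 1.76 and 3.21 CPM at 0 h, 1.95 and 2.88 at 6 h, 1.97 and 2.37 at day 3, 10.0 and 8.05 at day 5, 18.8 and 18.6 at day 7 and 21.8 and 21.9 at day 10. It was not called at day 3 (-0.23, SE 0.29, edgeR adjusted p = 0.502) and rose by 2.05 (SE 0.23, edgeR adjusted p = 8.26e-07) at day 5 and 1.05 (SE 0.17, edgeR adjusted p = 1.70e-04) at day 7. Per kilobase of gene length, the level of Lbr was 54.4 and 29.9 times that of Tm7sf2 in the 0 h libraries and 0.572 and 0.645 times in those of day 10. Tm7sf2 shares 532 exonic bases with Vps51 on the same strand. Vps51 changed by 0.49 (SE 0.13, edgeR adjusted p = 0.00164) over the whole course, against 3.10 (SE 0.21, edgeR adjusted p = 5.04e-10) for Tm7sf2. Lbr fell alongside the genes of dividing cells, and the part of cell division in it was not tested.

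The bases upstream of these genes are shown because the enzymes moved together at day 3 and because SREBP2 is known to act at promoters beside the factors NF-Y and Sp1. RefSeq promoter windows (GRCm38.p6, 250 bases before to 50 after the start) were at hand for 26 of the 32 genes and 16 of the 19 enzymes. On both strands, the sterol regulatory element TCACNCCAC was matched in 1 of the 26, Hmgcs1, and in 1.44% of all 27025 genes with a window. A stricter form, an A followed by this element with C at its open base, was matched in 0 of 26 and in 0.0999% of genes. The NF-Y motif CCAAT was matched in 15 of 16 enzymes and in 21 of 26 genes, against 41.1% of all genes with a window and 43.4% of the 10038 of them tested here. The Sp1 motif GGGCGG was matched in 15 of 16 enzymes, against 38.2% and 68.7%. Acat2 was the enzyme without CCAAT, and Pmvk that without GGGCGG. A form of the LXR element, AGGTCA repeated after a gap of 4 bases, was matched in 0 of 26 and in 0.0148% of genes. Matches are letters in these windows and not shown to be sites. The absence of a match says only that these letters are not in this window.

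The stretches below end just before the RefSeq start used for the window and run 5′ to 3′ on the strand of the gene. For Lss that start lies inside the annotated gene, which begins at chr10:76531565, so the last printed bases of Lss are within the gene. Capitals mark TCACNCCAC and CCAAT on either strand, the latter reading ATTGG when reversed. Hmgcs1 is shown as the enzyme with both marked motifs. Mvd, Lss and Msmo1 are enzymes that rose by day 10 and hold CCAAT but not TCACNCCAC. Lbr and Tm7sf2 are the pair that went opposite ways, and Insig1 is the sensor with the largest rise of its group. GGGCGG is not marked, and the windows of Mvd, Lss and Msmo1 match it as well.
Hmgcs1 (chr13:119690101-119690350, forward strand): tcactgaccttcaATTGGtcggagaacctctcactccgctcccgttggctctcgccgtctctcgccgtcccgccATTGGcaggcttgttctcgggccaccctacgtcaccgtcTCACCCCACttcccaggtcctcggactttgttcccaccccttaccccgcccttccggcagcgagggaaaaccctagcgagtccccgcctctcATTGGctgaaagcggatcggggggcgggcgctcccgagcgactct
Mvd (chr8:122443423-122443542, reverse strand): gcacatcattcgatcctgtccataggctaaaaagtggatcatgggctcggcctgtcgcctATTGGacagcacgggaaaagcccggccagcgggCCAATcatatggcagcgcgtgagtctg
Lss (chr10:76531485-76531604, forward strand): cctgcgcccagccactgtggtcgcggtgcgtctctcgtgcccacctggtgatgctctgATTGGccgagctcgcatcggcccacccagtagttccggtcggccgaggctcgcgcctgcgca
Msmo1 (chr8:64733579-64733758, reverse strand): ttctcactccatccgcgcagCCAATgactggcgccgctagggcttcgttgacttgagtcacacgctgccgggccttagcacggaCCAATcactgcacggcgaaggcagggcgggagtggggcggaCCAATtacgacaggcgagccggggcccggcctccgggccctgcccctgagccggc
Tm7sf2 (chr19:6067851-6067970, reverse strand): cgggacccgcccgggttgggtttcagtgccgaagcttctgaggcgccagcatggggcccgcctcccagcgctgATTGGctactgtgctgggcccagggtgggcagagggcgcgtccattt
Lbr (chr1:181842402-181842521, reverse strand): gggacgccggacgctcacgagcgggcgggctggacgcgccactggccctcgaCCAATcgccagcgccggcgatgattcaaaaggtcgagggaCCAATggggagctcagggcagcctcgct
Insig1 (chr5:28071162-28071411, forward strand): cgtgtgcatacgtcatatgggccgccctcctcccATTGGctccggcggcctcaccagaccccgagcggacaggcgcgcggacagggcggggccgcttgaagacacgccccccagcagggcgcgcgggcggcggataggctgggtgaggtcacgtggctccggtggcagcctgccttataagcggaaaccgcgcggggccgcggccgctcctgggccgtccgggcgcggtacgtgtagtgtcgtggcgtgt

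Hmgcs1 holds 1 sterol regulatory element and 3 CCAAT matches in the printed bases, Msmo1 3 CCAAT matches, Mvd and Lbr 2 each, and Lss, Tm7sf2 and Insig1 1 each. The stretches differ in length: 250 bases for Hmgcs1 and Insig1, 180 for Msmo1 and 120 for the others. The counts are therefore not a ranking of the genes. The relation of the matches to the direction of change was not tested.

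Among the 4 sterol sensing genes, both INSIG genes rose over the course while the genes of SREBP2 and SCAP fell. Insig1 (chr5:28071412-28078662) measured 49.3 and 77.1 CPM at 0 h, 51.5 and 83.0 at 6 h, 49.0 and 28.2 at day 3, 346 and 295 at day 5, 818 and 807 at day 7 and 1095 and 1005 at day 10. It was not called at day 3 (-0.71, SE 0.35, edgeR adjusted p = 0.116), where its replicates lay far apart, and rose by 3.05 (SE 0.36, edgeR adjusted p = 2.57e-04) at day 5. The rise from day 5 to day 7, 1.34 (SE 0.32, edgeR adjusted p = 0.0175), was not called without any 1 of the 4 libraries compared (edgeR adjusted p from 0.0527 to 0.0980). Without day 3 replicate 1 the change at day 3 was -1.17 and was called (edgeR adjusted p = 0.0476).

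Insig2, the second INSIG gene, had 21.8 and 24.2 CPM at 0 h, 20.5 and 22.1 at 6 h, 50.2 and 48.5 at day 3, 44.4 and 43.9 at day 5, 87.8 and 67.6 at day 7 and 136 and 126 at day 10. It rose by 1.1 (SE 0.11, edgeR adjusted p = 2.23e-07) at day 3, when 15 of the enzymes fell, was not called from day 3 to day 5 (-0.16, SE 0.11, edgeR adjusted p = 0.195), and rose again by 0.81 (SE 0.11, edgeR adjusted p = 1.65e-05) and 0.75 (SE 0.10, edgeR adjusted p = 3.67e-05). Per kilobase, Insig1 was 2.52 and 3.56 times Insig2 in the 0 h libraries, 1.09 and 0.648 times at day 3 and 8.96 and 8.91 times at day 10. Only at day 3 did the libraries differ in which of the pair was higher.

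Srebf2, the SREBP2 gene, measured 62.9 and 74.4 CPM at 0 h, 61.0 and 67.8 at 6 h, 37.7 and 33.9 at day 3, 32.1 and 40.5 at day 5, 42.0 and 43.5 at day 7 and 43.1 and 35.4 at day 10. It fell by 0.94 (SE 0.12, edgeR adjusted p = 5.40e-06) at day 3 and was called in none of the later steps, so day 10 stood below 0 h (-0.81, SE 0.12, edgeR adjusted p = 1.75e-05). Without day 5 replicate 2 its rise from day 5 to day 7, 0.41, was called (edgeR adjusted p = 0.0411). Scap went from 75.5 ± 0.136 CPM at 0 h to 53.4 ± 7.02 CPM at day 10 (-0.50, SE 0.10, edgeR adjusted p = 2.27e-04). Both genes were thus lower at the end of the course, when 15 of 19 enzymes were higher than at 0 h. These are transcript levels and say nothing of SREBP2 cleavage.

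**Figure D3:**
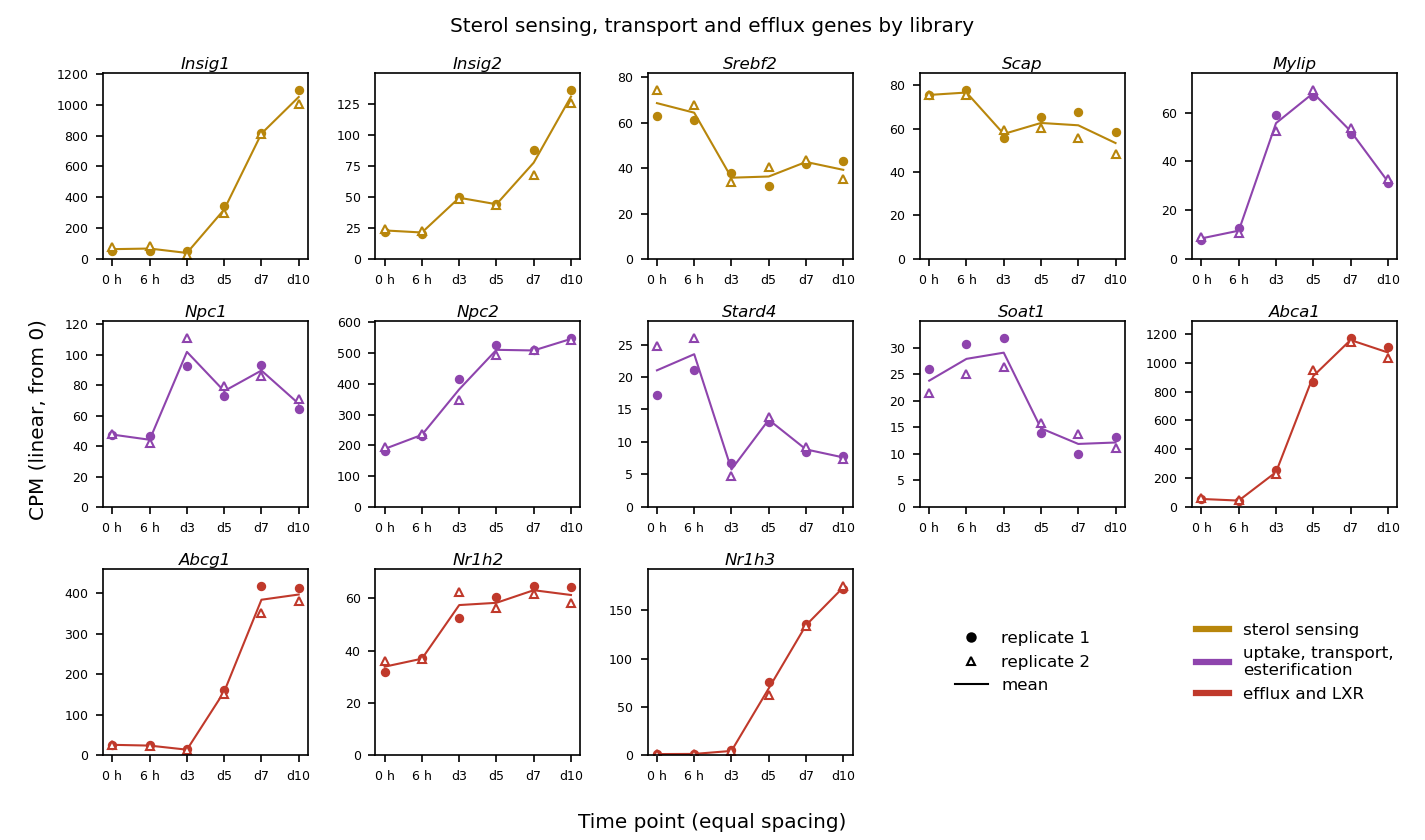
CPM of the 13 sterol sensing, transport and efflux genes in each library (circle, replicate 1; open triangle, replicate 2; line, mean) at the 6 time points, drawn at equal spacing. Insig1, Abca1, Abcg1 and Nr1h3 end far above 0 h, Srebf2, Stard4 and Soat1 end below it, and Mylip peaks at day 5.

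Of the 5 genes of uptake control, lysosomal export, transfer and storage, 3 rose at day 3, where 33.1% of all genes did. Mylip, which encodes a ubiquitin ligase that removes lipoprotein receptors and is a known LXR target, measured 7.71 and 9.15 CPM at 0 h, 12.5 and 10.7 at 6 h, 59.1 and 52.4 at day 3, 66.8 and 69.3 at day 5, 51.3 and 53.7 at day 7 and 31.0 and 32.6 at day 10. It rose by 2.72 (SE 0.12, edgeR adjusted p = 2.59e-12) at day 3. It peaked at day 5 and then fell by 0.72 (SE 0.10, edgeR adjusted p = 5.50e-05) in the last step. The small rise at day 5, 0.29 (SE 0.095, edgeR adjusted p = 0.0138), lost its call with upper-quartile factors and without day 3 replicate 2 or day 5 replicate 2 (edgeR adjusted p from 0.0585 to 0.118). The fall at day 7, -0.37 (SE 0.095, edgeR adjusted p = 0.00530), lost its call without day 7 replicate 1 (edgeR adjusted p = 0.0530).

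Npc1 and Npc2, whose proteins pass cholesterol out of the lysosome, both rose at day 3, by 1.1 (SE 0.096, edgeR adjusted p = 2.91e-08) and 1.02 (SE 0.083, edgeR adjusted p = 1.08e-08). Npc2 measured 181 and 196 CPM at 0 h, 230.4 and 239 at 6 h, 416 and 349 at day 3, 526 and 496 at day 5, 509 and 509 at day 7 and 549 and 544 at day 10, and all libraries from day 3 on lay above those of 0 h and 6 h. Npc1 had 47.3 and 47.9 CPM at 0 h, 46.6 and 41.7 at 6 h, 92.9 and 111 at day 3, 72.7 and 79.6 at day 5, 93.5 and 85.9 at day 7 and 64.6 and 71.1 at day 10. Its mean was highest at day 3, where its libraries overlapped those of day 7. Npc1 fell by 0.42 (SE 0.093, edgeR adjusted p = 8.21e-04) at day 5 and by 0.40 (SE 0.095, edgeR adjusted p = 0.00473) at day 10. The fall at day 10 was not called without day 7 replicate 1 (-0.34) or day 10 replicate 1 (-0.33). Between the falls, its rise from day 5 to day 7 was not called (0.24, edgeR adjusted p = 0.0578), but was under 5 of 19 alternatives.

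Stard4, a soluble sterol transfer protein and a known SREBP2 target, measured 17.3 and 24.8 CPM at 0 h, 21.0 and 26.0 at 6 h, 6.73 and 4.80 at day 3, 13.1 and 13.8 at day 5, 8.45 and 9.26 at day 7 and 7.88 and 7.35 at day 10. It shared the fall of the enzymes at day 3 (-1.87, SE 0.19, edgeR adjusted p = 2.98e-07) and the rise at day 5 (1.21, SE 0.20, edgeR adjusted p = 5.48e-05). Unlike 15 of the 19 enzymes it then did not rise: from day 5 to day 7 it fell by 0.60 (SE 0.19, edgeR adjusted p = 0.0193), a call lost without any 1 of those 4 libraries (edgeR adjusted p from 0.0547 to 0.120), and at day 10 it stood at -1.47 (SE 0.19, edgeR adjusted p = 2.47e-06) against 0 h. Soat1, which esterifies cholesterol for storage, had 26.1 and 21.5 CPM at 0 h, 30.8 and 25.0 at 6 h, 31.8 and 26.3 at day 3, 13.9 and 15.8 at day 5, 9.97 and 13.8 at day 7 and 13.2 and 11.1 at day 10. It fell by 0.97 (SE 0.16, edgeR adjusted p = 7.55e-05) between day 3 and day 5, and libraries from day 5 on lay below all earlier ones.

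All 4 efflux and LXR genes rose from 0 h to day 10, where 42.8% of all genes did. The 4 did not rise at the same time. Abca1 (chr4:53030789-53159988), the exporter that loads cholesterol onto apolipoprotein A-I, measured 51.8 and 58.5 CPM at 0 h, 38.8 and 49.1 at 6 h, 257 and 226 at day 3, 866 and 949 at day 5, 1171 and 1144 at day 7 and 1109 and 1034 at day 10. It rose by 2.13 (SE 0.11, edgeR adjusted p = 3.63e-11) at day 3 and 1.91 (SE 0.10, edgeR adjusted p = 7.66e-11) at day 5. A further rise at day 7, 0.35 (SE 0.098, edgeR adjusted p = 0.0102), was lost without day 5 replicate 1 (edgeR adjusted p = 0.0707) or day 7 replicate 1 (0.0640). Abcg1, which exports cholesterol to formed lipoprotein particles, had 24.7 and 25.3 CPM at 0 h, 23.9 and 22.2 at 6 h, 14.2 and 11.7 at day 3, 161 and 152 at day 5, 418 and 350.5 at day 7 and 413 and 382 at day 10. At day 3 it fell by 0.95 (SE 0.12, edgeR adjusted p = 1.67e-06), and at day 5 it rose by 3.59 (SE 0.11, edgeR adjusted p = 4.43e-14). Per kilobase, the level of Abca1 was 1.19 and 1.31 times that of Abcg1 at 0 h, 10.2 and 10.9 times at day 3 and 1.52 and 1.53 times at day 10.

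Nr1h3 (chr2:91184061-91202829), the gene of LXRα, had the largest change of the 32, with 0.881 and 0.866 CPM at 0 h, 0.716 and 1.36 at 6 h, 4.76 and 3.55 at day 3, 75.8 and 62.4 at day 5, 136 and 134 at day 7 and 173 and 175 at day 10. Its 0 h libraries held 12 and 14 counts of it, and its day 10 libraries 1927 and 2290. Macrophages are known for both LXRα and ABCA1, and the 5 measured macrophage markers summed to 11.8 and 11.1 CPM in the 0 h libraries and 10.1 and 8.88 CPM in those of day 10. The members of that sum moved apart. Cd68 rose from 1.04 ± 0.0162 CPM at 0 h to 4.14 ± 0.377 CPM at day 3 and 7.54 ± 0.902 CPM at day 5. It then measured 6.12 ± 0.450 CPM at day 7 and 3.24 ± 0.359 CPM at day 10. Its change in the last step was -0.92 (SE 0.21, edgeR adjusted p = 0.00327), where Nr1h3 rose. Over the course Cd14 fell from 9.42 ± 0.384 CPM to 6.09 ± 0.382 CPM and Csf1r from 0.984 ± 0.167 CPM to 0.0831 ± 0.00920 CPM. Their part in the levels of Nr1h3 and Abca1 was not tested. The log2 fold change of Nr1h3 was 2.24 (SE 0.28, edgeR adjusted p = 2.66e-06) at day 3, 4.05 (SE 0.14, edgeR adjusted p = 4.04e-13) at day 5 and 7.63 (SE 0.18, edgeR adjusted p = 6.93e-16) over the course. The last step, 0.37 (SE 0.10, edgeR adjusted p = 0.0112), was not called without day 7 replicate 2 or either day 10 library (edgeR adjusted p from 0.0559 to 0.0807). Nr1h2, the gene of LXRβ, went from 33.8 ± 2.97 CPM at 0 h to 57.4 ± 7.05 CPM at day 3 and 61.3 ± 4.27 CPM at day 10 (0.85, SE 0.10, edgeR adjusted p = 5.34e-07). Per kilobase, Nr1h2 was 36.2 and 41.8 times Nr1h3 at 0 h. At day 5 Nr1h3 was 1.25 and 1.10 times Nr1h2, and at day 10 2.67 and 2.99 times, so the order of the pair turned between day 3 and day 5.

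**Figure D4:**
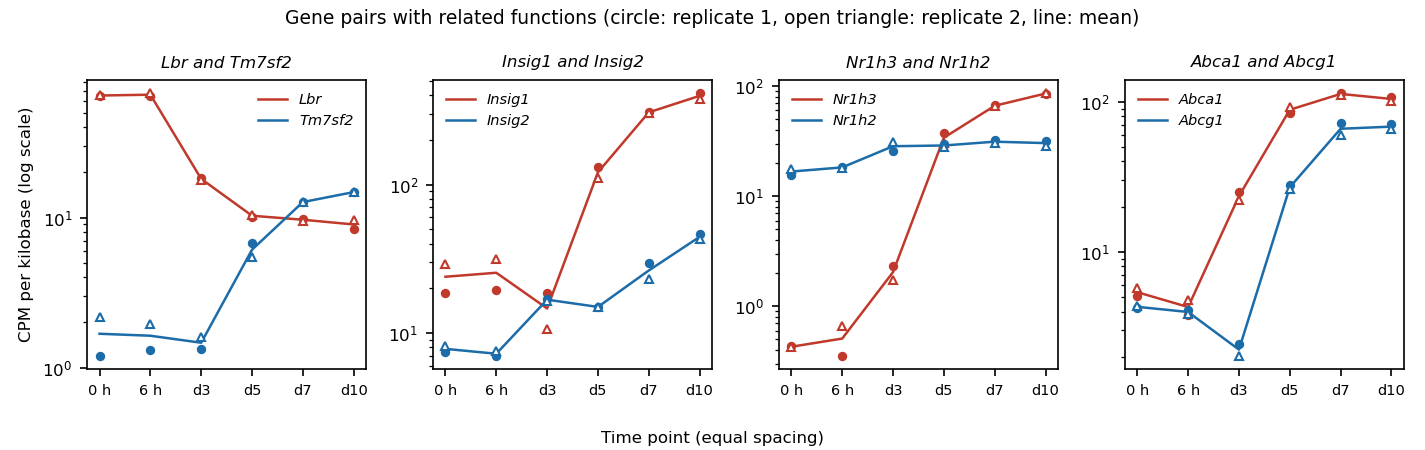
Level per kilobase of gene length (CPM per kb, log scale) of 4 pairs of genes in each library (circle, replicate 1; open triangle, replicate 2; line, mean) at the 6 time points, drawn at equal spacing. The lines cross for Lbr with Tm7sf2 between day 5 and day 7 and for Nr1h3 with Nr1h2 between day 3 and day 5. Those of Insig1 and Insig2 cross before and after day 3, the only time when the mean of Insig2 is the higher. Abcg1 dips at day 3 where Abca1 rises.

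The order of levels changed with the course. In CPM per kilobase of deposited gene length, the highest of the 32 at 0 h was Lbr at 64.9 ± 0.0888, followed by Npc2 at 57.8 ± 3.27, Msmo1 at 54.1 ± 10.0 and Sqle at 49.9 ± 5.94. Neighbours among the last 3 overlapped between libraries. The lowest were Tm7sf2 at 1.68 ± 0.694, Idi1 at 0.748 ± 0.406 and Nr1h3 at 0.429 ± 0.00545. At day 3 the highest was Npc2 at 117 ± 14.6 and the next Sqle at 42.3 ± 5.50, with no overlap. At day 10 Insig1 stood first at 396 ± 24.0, then Hmgcs1 at 346 ± 9.37, Npc2 at 168 ± 1.21, Dhcr7 at 128 ± 7.93 and Pmvk at 114 ± 0.218, and none of these neighbours overlapped. Lbr was then 28th of 32, at 8.99 ± 0.797 CPM per kilobase.

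Neighbouring pathways were read from lists of other genes, beside 33.1% of all genes higher and 35.0% lower at day 3, and 42.8% higher and 39.9% lower at day 10 against 0 h. From day 3 to day 5, 34.0% of all genes rose. Of 7 genes of SREBP1 and acetyl-CoA supply, 4 fell and 1 rose at day 3, all 7 rose at day 5, and 6 were higher and 1 lower at day 10 than at 0 h (median 3.29, all genes 0.06). Acss2, which makes acetyl-CoA from acetate, went from 7.31 ± 3.48 CPM to 1209 ± 32.2 CPM, and Slc25a1, the mitochondrial citrate carrier, from 32.6 ± 1.07 CPM to 681 ± 92.5 CPM. Elovl6, a fatty acid elongase, changed by -0.48 (SE 0.18, edgeR adjusted p = 0.0334). Of 15 sterol transport and lipoprotein receptor genes, 8 rose and 3 fell at day 3, and 9 rose and 3 fell by day 10 (median 0.92). The receptor gene Vldlr rose by 5.69 (SE 0.14, edgeR adjusted p = 3.15e-15) and Lipa, the lysosomal lipase that frees cholesterol from its esters, by 3.99 (SE 0.13, edgeR adjusted p = 2.87e-12). Lrp8, another receptor of the family, fell from 66.9 ± 4.04 CPM to 1.66 ± 0.0664 CPM, and Nceh1, a cholesteryl ester hydrolase, fell by 1.21 (SE 0.093, edgeR adjusted p = 2.04e-09).

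Of 8 oxysterol enzyme and other LXR target genes, Cyp7b1 was not analysed here, Ch25h had 19 counts over all libraries and was not tested, and the other 6 split into 4 higher and 2 lower at day 10 than at 0 h (median 2.68, the same with Cyp27a1 at its bound). Pltp, the phospholipid transfer protein gene, rose by 3.75 (SE 0.15, edgeR adjusted p = 4.78e-11), and Arl4c fell by 5.12 (SE 0.13, edgeR adjusted p = 1.59e-15). Cyp39a1, an oxysterol hydroxylase gene, fell by 1.42 (SE 0.27, edgeR adjusted p = 1.16e-04). Cyp27a1, a sterol hydroxylase gene, had 0 counts at 0 h and 2.85 ± 0.0235 CPM at day 10, a difference of at least 28.3-fold if the 0 h group is set to 3 counts in all. It passed the filter only through later times, so that difference was partly built in. The same holds for its place among the 4 higher genes and in their list's median.

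Replicate libraries of the start differed in these genes. At 0 h, 17 of the 19 enzymes were higher in replicate 2 than in replicate 1, with a median difference in log2 CPM of 0.37, and at 6 h 18 of 19, with a median of 0.34. Over all genes tested the medians were 0 and 0.00194. At day 3 and day 7, 18 of 19 were higher in replicate 1, at day 5 16, and at day 10 11. In 16 of 19 enzymes both day 3 libraries still lay below both 0 h libraries, against 42.1% of all genes tested. The cause of the difference between the libraries was not tested.

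**Figure D5:**
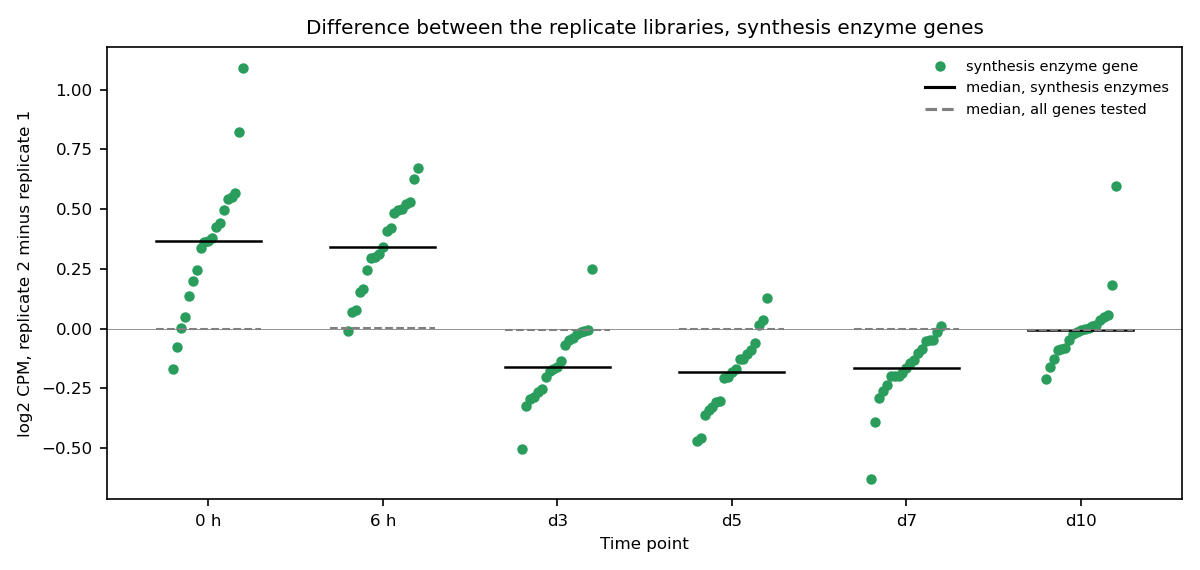
Difference in log2 CPM between replicate 2 and replicate 1 for the 19 synthesis enzyme genes (1 point each) at the 6 time points, with the median of the 19 as a solid line and that of all genes tested as a dashed line. The median lies at 0.37 at 0 h and 0.34 at 6 h, and below 0 at the 4 later times.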

How the data were processed

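RNA of MTΔECad cells was sequenced in 12 libraries over 6 time points. Per the labels' protocols, the libraries used a stranded kit for total RNA and 200 ng of input, although poly-A+ RNA is also named. The authors deposited 1 table of raw counts by Entrez gene, with a gene length. STAR and mm10 are named in the submitters' processing notes; how reads were counted, on which annotation and with which use of strand, is not given in the sources used here. Of 17090 identifiers, 17045 were matched to symbols in the RefSeq annotation of GRCm38.p6, the assembly that mm10 is built on.

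The robust quasi-likelihood F test of edgeR 4.0.16 (R 4.3.3) was used, with all 12 libraries in 1 model of 6 time point means, leaving 6 residual degrees of freedom. TMM factors and filterByExpr (minimum count 10, minimum total 15) were used; 12740 genes were tested, and p-values were adjusted over all of them by Benjamini-Hochberg and called below 0.05. Fold changes used a prior count of 0.125, so low genes are slightly shrunk, and the SE was the fold change divided by the root of F. Differences between replicates were taken on log2 CPM with a prior count of 2. Levels between genes were compared only as CPM per kilobase of the deposited gene length. Median-of-ratios or upper-quartile factors, 2 other filters, DESeq2 1.42.0, the replicate number as a block, fits restricted to the 4 libraries compared and fits without each library were the alternatives. On simulated counts of 12740 genes for day 10 against 0 h, edgeR recovered 86.6% of genes changed 1.5-fold and 98.5% of those changed 2-fold. Of 194 calls 4 were false. Those genes varied independently, all with the same spread, and few were changed, only ones above a minimum level. Recovery of genes that are lower or vary more was not tested.

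The 32 genes, their roles and the 5 lists of neighbouring genes were chosen with earlier results of these data known. Any of the 32 could be named; from each neighbouring list, at most the 2 largest called rises and falls at day 10 against 0 h were. Ctsb, Acat3, Tcp1 and Vps51 were looked up after the values of the genes they overlap or resemble were seen. Exonic overlaps and similar transcripts (at least 90% identity over 300 bases) were found with GENCODE M21. Other genes of the pathway are not analysed here.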

Additional observations from a re-analysis of the deposited data

How the results depend on the processing

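Over 19 alternatives none of the 32 genes turned the direction of a called change. Of 112 called changes (gene by comparison), 99 kept their call under every alternative and 13 lost it under at least 1. All 32 genes passed the joint test under every alternative that gave one. The counts of genes at day 10 against 0 h and at day 3 against 0 h stayed within 1.5 times of those reported. At 6 h the count of risen genes, 0 in the reported fit, was 1 with no filter on low counts and 1 with only the 4 libraries compared, and 0 to 1 when each library was left out (1 without either day 3 library); the count of fallen genes was 1 with no filter. Genes fallen at least 2-fold from day 3 to day 5 numbered 0, or 1 with upper-quartile factors, and 0 to 1 with a library left out (1 without day 3 replicate 2 or day 5 replicate 2). From day 5 to day 7, leaving out a library gave 8 to 15 genes risen at least 2-fold and 0 to 2 fallen. From day 7 to day 10 it gave 3 to 6 risen, and the fit of only the 4 libraries gave 10. Where a time point was left with 1 library, that library was assumed to vary like the others. The cause of these shifts was not tested.

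Over all genes tested, the correlation of replicate deviations was above 0.1 in 1 of 15 pairs of time points, 0 h with 6 h (0.193). Low correlations cannot exclude that the replicate numbers pair the libraries, which came from 2 independent experiments. With the replicate block, 24 genes rose and 6 fell at day 10 against 0 h, 7 rose and 19 fell at day 3, 20 rose and 5 fell at day 5, 20 rose and 2 fell at day 7, and 4 rose and 3 fell from day 7 to day 10; it ended the calls of Msmo1 (day 5 against day 3) and Sqle (day 10 against day 7) only. Counts of 5 to 53 per library limit Idi1, and 11 to 25 counts at 0 h and 6 h limit Nr1h3.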

Other observations

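Branches that leave the mevalonate pathway were read from a list of their own. Of 9 genes of nonsterol isoprenoid synthesis and protein prenylation, 4 fell and 1 rose at day 3, 7 rose at day 5, and 5 were higher and 2 lower at day 10 than at 0 h (median 0.53, all genes 0.06). Of all genes, 35.0% fell and 33.1% rose at day 3, 34.0% rose at day 5, and 42.8% were higher and 39.9% lower at day 10. Pdss1, which builds the side chain of coenzyme Q, fell from 34.9 ± 0.939 CPM at 0 h to 5.31 ± 0.863 CPM at day 3, rose to 41.6 ± 0.210 CPM at day 5 and ended at 17.4 ± 2.22 CPM, with -1.0 (SE 0.12, edgeR adjusted p = 9.85e-07) over the course. Ggps1, the geranylgeranyl diphosphate synthase gene, changed by -0.22 (SE 0.091, edgeR adjusted p = 0.0320). Fnta, a subunit of the prenyl transferases, rose by 1.06 (SE 0.078, edgeR adjusted p = 1.19e-09), and Coq2, an enzyme of coenzyme Q synthesis, by 0.86 (SE 0.11, edgeR adjusted p = 1.91e-06).

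Of 10 genes for SREBP cleavage and sterol-regulated protein degradation, 5 rose and 4 fell by day 10 (median 0.19). At day 3 the counts were 5 risen and 3 fallen, beside 33.1% and 35.0% of all genes. The day 10 counts lie near the shares over all genes, 42.8% and 39.9%. Erlin2 rose by 0.87 (SE 0.078, edgeR adjusted p = 1.63e-08) while its partner Erlin1 fell by 0.85 (SE 0.10, edgeR adjusted p = 6.59e-07). Rnf145, a ubiquitin ligase gene, rose by 0.64 (SE 0.073, edgeR adjusted p = 3.55e-07), and Mbtps2, the protease gene of the second SREBP cleavage, fell by 0.52 (SE 0.13, edgeR adjusted p = 0.00110).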
